A study of Mus musculus with 3 samples.

Results

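Spib, Sox8, Gp2, Tnfaip2, Marcksl1, Pglyrp1, Ccl9, Aire and Fezf2 are genes that RelB-type NF-κB is known to control in M cells of the gut and in thymic epithelium, and they were followed here in a glucagon-producing cell line. These 9 genes, of 52948 gene IDs in the deposited tables, were picked by name, with the results for the NIK library already known, so their values are given as a description. All 9 were found in the tables through their Ensembl gene IDs. The cells were αTC1-6, a cultured mouse line derived from a pancreatic α-cell tumour and grown in DMEM with fetal bovine serum. Infection lasted 16 h, with an adenovirus for NIK, an adenovirus for NIK(KA), or an adenovirus for β-Gal (β-galactosidase) as the control, so all groups carried a virus. NIK is the NF-κB-inducing kinase, the product of Map3k14, and NIK(KA) is described in the literature as a kinase-dead mutant, a point on which the labels are silent. Each group was 1 library, so differences lack a replicate check and none was tested.

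M cells are epithelial cells over the lymphoid follicles of the gut that carry particles and bacteria from the lumen to immune cells beneath. The cytokine RANKL drives their differentiation through its receptor RANK, NIK and the NF-κB dimer of RelB and p52, and the transcription factors Spib and Sox8 act downstream. In the thymus the same pathway is needed for medullary epithelial cells, in which Aire and Fezf2 switch on genes of other tissues so that developing T cells become tolerant to them.

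Levels are given as deposited, in FPKM, which scales the fragments of a gene to its length and to the counted reads of the library. The libraries rest on 15523580 counted reads for NIK, 16652922 for NIK(KA) and 18629668 for β-Gal. Whole reads behind the FPKM values of the genes named were recovered, or estimated where the text says so. Each ratio of reads, scaled to the library totals, has an exact 95% interval for the reads used, which covers counting error only. A call of higher or lower needed a difference of at least 1 in log2(FPKM + 1), that is 2-fold, and an average of at least 1 FPKM across the 3 libraries. Of the α-cell markers, 11 of 12 passed that filter, and the glucagon gene Gcg was at 6955 FPKM in NIK, 10197 in NIK(KA) and 12093 in β-Gal. Map3k14 had an FPKM of 8.42 in NIK, 12.1 in NIK(KA) and 5.35 in β-Gal, so both kinase libraries lay above the control. The ratio was 1.57 for NIK against β-Gal (1.31 to 1.89), under the 2-fold rule. It was 0.698 for NIK against NIK(KA) (0.599 to 0.812). Reads from the viral insert and from the gene of the cells were not told apart.

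In the NIK library 8 of the 9 genes had reads, against 7 of 9 in NIK(KA) and 7 of 9 in β-Gal. Together they took 12245 reads in NIK, 957 in NIK(KA) and 877 in β-Gal, which is 0.0789%, 0.00575% and 0.00471% of the library totals. Spib and Marcksl1 gave 92.9% of these reads in NIK. Marcksl1 alone gave 92.4% in NIK(KA) and 89.3% in β-Gal. Only 5 of the 9 genes passed the filter, which takes in genes detected mainly in NIK. Of the 9 genes, 4 were higher in NIK cells than in β-Gal cells (Spib, Tnfaip2, Marcksl1 and Aire) and 0 were lower. Over all 12950 genes past the filter, 5.14% were higher and 1.48% lower in that comparison. The same 4 genes were higher in NIK than in NIK(KA), where 5.07% of all genes were higher and 1.10% lower. For NIK(KA) set against β-Gal, 0 of the 9 genes passed the rule in either direction, with 0.263% of all genes higher and 0.417% lower. The comparisons share libraries, so their values are set side by side and not counted as separate support. Over the 9 genes, those under the filter included, the median log2 difference was 0.81 for NIK against β-Gal, 1.00 for NIK against NIK(KA) and 0.00 for NIK(KA) against β-Gal. The medians over all genes past the filter were -0.02, -0.03 and 0.01 in the same order. In RNA from whole cultures, more cells with a transcript and more of it per cell cannot be told apart.

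**Figure D1:**
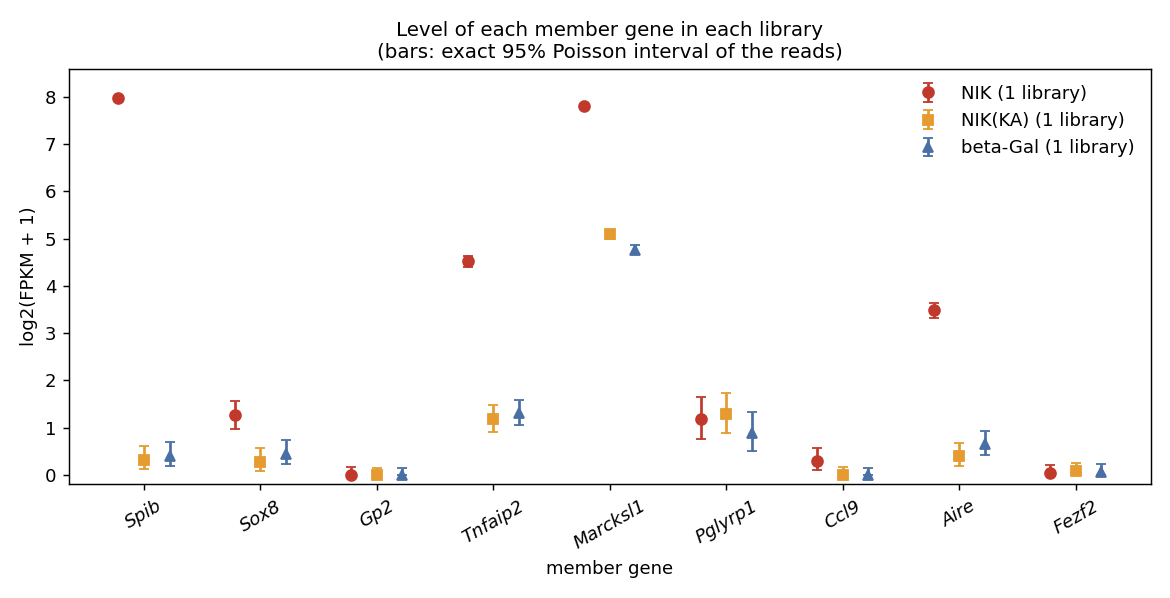
Level of each of the 9 genes on the log2(FPKM + 1) scale (y axis) in the NIK, NIK(KA) and β-Gal libraries, 1 library each, with the exact 95% Poisson interval of its reads as bars. Spib, Tnfaip2, Marcksl1 and Aire stand apart in NIK, Sox8 lies low but above the other libraries, and Gp2 is at 0 in all 3 libraries.

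The promoters of the 4 higher genes are shown because these genes moved together in NIK, and capitals mark matches to the κB consensus, the DNA element bound by NF-κB dimers. Each stretch is the 250 bases before the RefSeq transcription start on GRCm38.p6, written 5′ to 3′ on the strand of the gene. The Spib stretch lies at chr7:44532072-44532321 on the minus strand and the Tnfaip2 stretch at chr12:111442411-111442660 on the plus strand. The Marcksl1 stretch lies at chr4:129513331-129513580 on the plus strand and the Aire stretch at chr10:78043611-78043860 on the minus strand.
Spib: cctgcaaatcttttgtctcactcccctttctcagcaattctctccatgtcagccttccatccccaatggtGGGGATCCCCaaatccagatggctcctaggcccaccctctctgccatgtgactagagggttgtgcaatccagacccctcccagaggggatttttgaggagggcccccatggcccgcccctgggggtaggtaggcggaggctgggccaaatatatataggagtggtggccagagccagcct
Tnfaip2: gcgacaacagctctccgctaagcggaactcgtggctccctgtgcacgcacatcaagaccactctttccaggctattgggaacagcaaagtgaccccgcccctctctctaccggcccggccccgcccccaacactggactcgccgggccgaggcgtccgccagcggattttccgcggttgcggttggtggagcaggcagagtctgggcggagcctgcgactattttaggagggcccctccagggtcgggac
Marcksl1: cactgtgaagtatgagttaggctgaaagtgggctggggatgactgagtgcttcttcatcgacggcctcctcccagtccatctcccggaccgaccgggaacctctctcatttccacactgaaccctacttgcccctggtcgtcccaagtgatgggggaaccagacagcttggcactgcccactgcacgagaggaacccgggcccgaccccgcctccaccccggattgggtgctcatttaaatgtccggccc
Aire: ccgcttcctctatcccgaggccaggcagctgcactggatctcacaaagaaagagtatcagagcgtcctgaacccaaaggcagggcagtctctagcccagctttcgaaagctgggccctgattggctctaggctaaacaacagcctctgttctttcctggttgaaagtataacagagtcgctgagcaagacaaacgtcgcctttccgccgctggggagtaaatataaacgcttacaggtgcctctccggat

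Both strands were searched in all 9 promoters, which RefSeq gave for each gene. The κB consensus matched in 4 of 9, against 3.90% of 32817 mouse promoters of the same length. The Spib match, GGGGATCCCC, is its own reverse complement and lies 180 to 171 bases before the start. Pglyrp1 held GGAAAGTCCC and was not called higher in NIK. Ccl9 held GGAAAGCCCC and Fezf2 held GGGACACCCC, but both lay under the filter and could not be called. Tnfaip2, Marcksl1 and Aire, which were called higher, had no match in this window. The windows of Tnfaip2 and Gp2 lie partly, and those of Pglyrp1 and Fezf2 wholly, within the gene span matched to the gene ID. The start is therefore not settled for these genes, and no other start was searched. Among promoters of the protein-coding genes called higher in NIK cells than in β-Gal cells, 12.3% of 593 held the consensus. GAGGAA, a core bound by ETS factors of the Spib and PU.1 kind, was found in the promoters of Marcksl1, Pglyrp1 and Aire, and in 23.3% of all.

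Spib (ENSMUSG00000008193, chromosome 7, 44525993 to 44532071, minus strand, GRCm38) encodes an ETS-family transcription factor that M cells, B cells and plasmacytoid dendritic cells need. It had 5790 reads in NIK, 6 in NIK(KA) and 9 in β-Gal. Its FPKM was 252 in NIK, 0.243 in NIK(KA) and 0.326 in β-Gal. NIK stood alone, and the other libraries lay close together near the limit of detection. Among protein-coding genes with reads, Spib ranked 371 of 15234 in NIK by FPKM, 12463 of 15357 in NIK(KA) and 11937 of 14927 in β-Gal. On the log2(FPKM + 1) scale it had the largest difference of the 11150 protein-coding genes past the filter in both comparisons of NIK. The ratio was 772 for NIK against β-Gal (406 to 1689) and 1035 for NIK against NIK(KA) (475 to 2822). For NIK(KA) against β-Gal it was 0.746 (0.218 to 2.35), an interval that includes 1.

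Sox8 (ENSMUSG00000024176, chromosome 17, 25565892 to 25570686), an HMG-box factor that M cells need to mature, was low in every library. It had 32 reads in NIK, 5 in NIK(KA) and 10 in β-Gal, with an FPKM of 1.40, 0.204 and 0.364 in the same order. Its mean FPKM of 0.656 lay under the filter, so it entered no count of calls. The ratio was 3.84 for NIK against β-Gal (1.84 to 8.76) and 6.87 for NIK against NIK(KA) (2.66 to 22.6). Both intervals lay above 1, while that of NIK(KA) against β-Gal, 0.559 (0.150 to 1.80), included 1. An antisense gene, 2810468N07Rik, shares 329 of the 3118 exon bases of Sox8 and had 19 reads in NIK, 16 in NIK(KA) and 30 in β-Gal. Without a known strand setting, reads in the shared bases cannot be assigned to either gene.

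**Figure D2:**
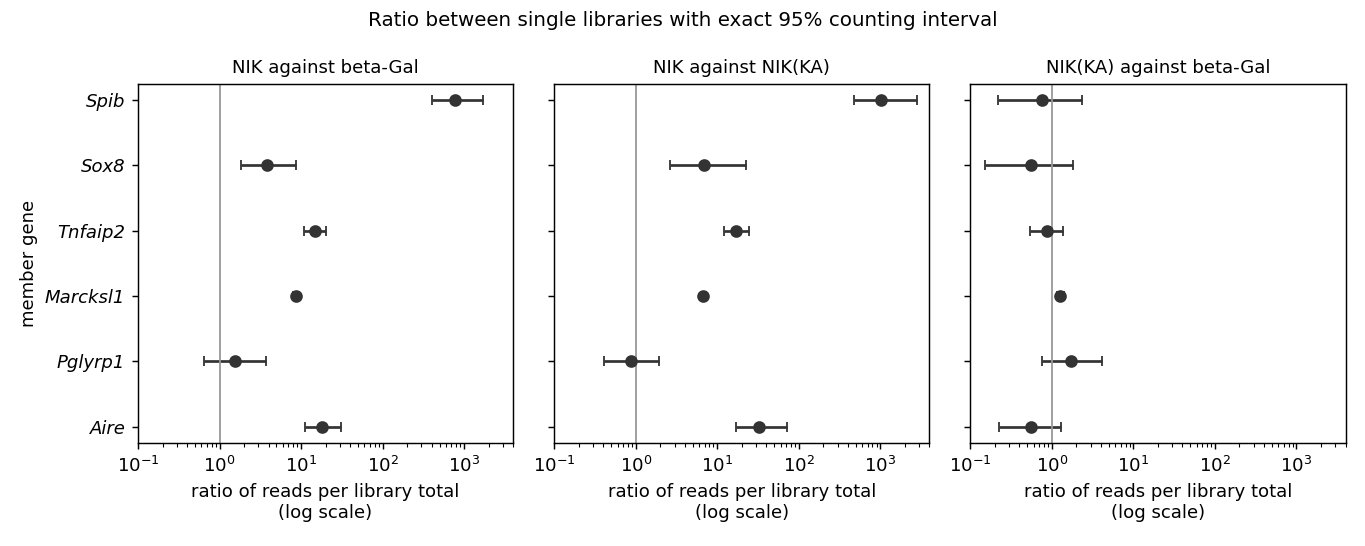
Ratios of reads per library total (log axis, dots) with exact 95% counting intervals (bars) for the 6 genes with at least 5 reads in every library. In both comparisons of NIK the intervals of Spib, Sox8, Tnfaip2, Marcksl1 and Aire lie above 1. Between NIK(KA) and β-Gal only that of Marcksl1 does.

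The surface and effector genes of the M cell differed widely in level. Gp2, the receptor by which M cells take up bacteria with type 1 pili, had 0 reads in all 3 libraries. That allows up to 3 reads, or 0.1005 FPKM in NIK, 0.0937 in NIK(KA) and 0.0837 in β-Gal. Tnfaip2 (ENSMUSG00000021281, chromosome 12, 111442469 to 111455018), also called M-Sec, takes part in the formation of membrane nanotubes and is an early M-cell gene. It had 540 reads in NIK, 34 in NIK(KA) and 44 in β-Gal, with an FPKM of 21.96, 1.29 and 1.49 in the same order. The ratio was 14.7 for NIK against β-Gal (10.8 to 20.5) and 17.04 for NIK against NIK(KA) (12.04 to 24.9). NIK(KA) and β-Gal did not differ beyond counting error, with a ratio of 0.864 (0.536 to 1.38). The antisense gene Gm40578 overlaps Tnfaip2 and had 0 reads in each library.

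Marcksl1 (ENSMUSG00000047945, chromosome 4, 129513581 to 129515985) encodes a membrane-bound regulator of the actin cytoskeleton that serves as an M-cell marker. Of the 9 genes it alone was well expressed without active NIK. It had 5591 reads in NIK, 884 in NIK(KA) and 783 in β-Gal, with an FPKM of 224, 33.1 and 26.2 in the same order. The ratio was 8.57 for NIK against β-Gal (7.95 to 9.25) and 6.78 for NIK against NIK(KA) (6.32 to 7.29). Its fold difference was therefore below that of Spib, although both ended at like FPKM levels in NIK. NIK(KA) lay above β-Gal as well, at a ratio of 1.26 (1.15 to 1.39), which is under the 2-fold rule. The processed pseudogene Marcksl1-ps4 had 0 reads in each library.

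Pglyrp1 and Ccl9 code for secreted proteins. Pglyrp1 (ENSMUSG00000030413, chromosome 7, 18871331 to 18890459), a peptidoglycan recognition protein stored in neutrophil granules and also found in M cells, had 14 reads in NIK, 17 in NIK(KA) and 11 in β-Gal. Its FPKM was 1.28 in NIK, 1.45 in NIK(KA) and 0.841 in β-Gal. The ratio was 1.53 for NIK against β-Gal (0.644 to 3.72) and 0.883 for NIK against NIK(KA) (0.403 to 1.90), and at this depth no difference was detectable. Ccl9 (ENSMUSG00000019122, chromosome 11, 83572919 to 83578636), a chemokine that draws dendritic cells to the follicle epithelium, had 6 reads in NIK but 0 in both NIK(KA) and β-Gal. Its FPKM was 0.227 in NIK. By the lower end of the exact interval, NIK was at least 1.41-fold above β-Gal and at least 1.26-fold above NIK(KA).

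Of the thymic regulators, Aire differed and Fezf2 did not appear above a few reads. Aire (ENSMUSG00000000731, chromosome 10, 78030022 to 78043610), the autoimmune regulator, had 271 reads in NIK, 9 in NIK(KA) and 18 in β-Gal. Its FPKM was 10.2 in NIK, 0.317 in NIK(KA) and 0.567 in β-Gal. NIK stood far above both other libraries, which lay within counting error of each other at a ratio of 0.559 (0.221 to 1.31). The ratio was 18.1 for NIK against β-Gal (11.2 to 31.0) and 32.3 for NIK against NIK(KA) (16.8 to 71.4). Dnmt3l, a DNA methylation cofactor gene on the other strand, shares 67 of the 3825 exon bases of Aire. It had an estimated 38 reads in NIK, 0 in NIK(KA) and 0 in β-Gal. Its reads and those of Aire cannot be told apart in these bases. Fezf2 (ENSMUSG00000021743, chromosome 14, 12342094 to 12348189), a zinc-finger factor that acts beside Aire in the medulla, had 1 read in NIK, 2 in NIK(KA) and 2 in β-Gal.

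Ordered by FPKM in NIK, the genes ran from Spib (252) and Marcksl1 (224) through Tnfaip2 (21.96) and Aire (10.2) to Sox8 (1.40), Pglyrp1 (1.28), Ccl9 (0.227), Fezf2 (0.0296) and Gp2 at 0. Sox8 and Pglyrp1 had overlapping Poisson intervals there, 0.957 to 1.98 and 0.702 to 2.16 FPKM. In β-Gal the order was Marcksl1 (26.2), Tnfaip2 (1.49), Pglyrp1 (0.841), Aire (0.567), Sox8 (0.364), Spib (0.326), Fezf2 (0.0493), then Ccl9 and Gp2 at 0. Pglyrp1, Aire, Sox8 and Spib had overlapping intervals in β-Gal, and so did Tnfaip2 and Pglyrp1, so Marcksl1 alone stood clear of its neighbour in that order.

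**Figure D3:**
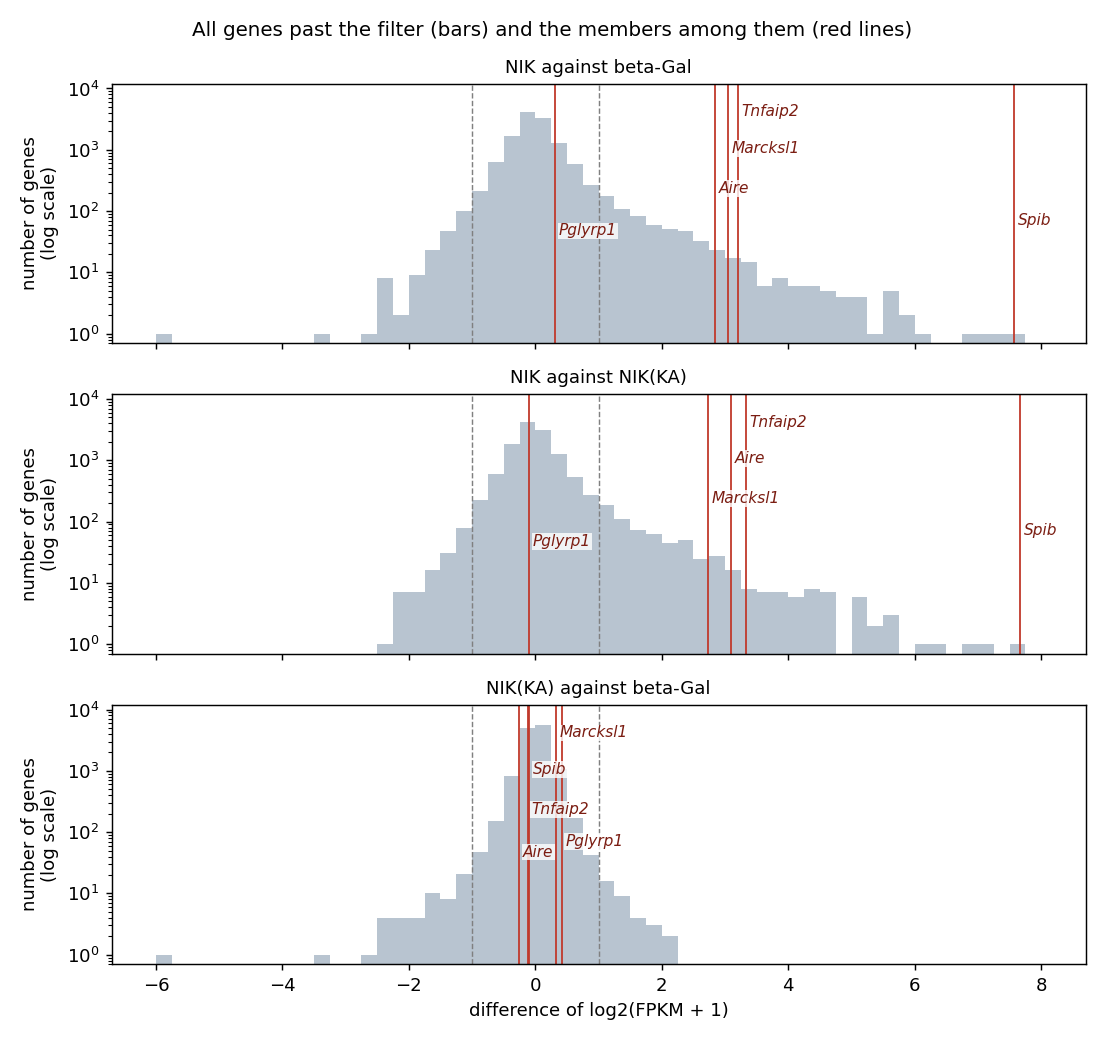
Number of genes (log axis) by difference of log2(FPKM + 1) for the 12950 genes past the filter, in bins of 0.25 with values under -6 in the lowest bin. Red lines mark the 5 genes described here that passed the filter and dashed lines the 2-fold rule. Spib lies at 7.57 and 7.67 in the comparisons of NIK with β-Gal and with NIK(KA), and all 5 lie between -0.25 and 0.41 for NIK(KA) against β-Gal.

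By distance over the 3 libraries on the log2(FPKM + 1) scale, the genes most like Spib were Madcam1 (0.72), an adhesion molecule of gut vessels, Srgn (1.10) and Cxcl1 (1.14). The nearest to Tnfaip2 were Tnfaip3 (0.28), which encodes the NF-κB inhibitor A20, the tight-junction gene Cgn (0.37) and Ephx1 (0.40). Near Marcksl1 lay Tapbp (0.22), which acts in peptide loading of MHC class I, Csrp2 (0.43) and Clu (0.48). Aire had Ddo (0.23), Lst1 (0.23) and Ehf (0.26) as its nearest genes. Those of Pglyrp1 were Spsb4 (0.06), Gm5741 (0.07) and Pfkfb4 (0.08). With 1 library per group such likeness says only that the levels were alike.

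Other genes linked to M cells and the follicle epithelium differed in both directions. Of 15 listed, 7 passed the filter, with 2 higher and 1 lower in NIK cells than in β-Gal cells, with the same counts against NIK(KA). Over all genes past the filter, 5.14% were higher and 1.48% lower in NIK cells than in β-Gal cells. Clu, which encodes the chaperone clusterin, was at 188 FPKM in NIK, 25.02 in NIK(KA) and 28.6 in β-Gal, 6.59-fold higher in NIK cells than in β-Gal cells (5.97 to 7.28). Esrrg, a nuclear receptor gene placed upstream of Sox8 in M cells, was at 14.1 FPKM in NIK, 5.89 in NIK(KA) and 5.74 in β-Gal, 2.45-fold higher in NIK cells than in β-Gal cells (2.15 to 2.79). Atoh8, a factor known to limit M-cell number, was at 34.5 FPKM in NIK, 88.0 in NIK(KA) and 75.5 in β-Gal, a ratio of 0.458 for NIK against β-Gal (0.421 to 0.497). The most abundant of the list did not pass the rule, with Scg5 at 303, 191 and 200 FPKM and Prnp at 168, 200 and 210 FPKM in NIK, NIK(KA) and β-Gal. Tnfrsf11a, which encodes RANK and is named here after its values were seen, lay under the filter with 56 reads in NIK, 3 in NIK(KA) and 2 in β-Gal. With no filter 4 genes of the list were higher in NIK cells than in β-Gal cells, and with a pseudocount of 5 only 1 was.

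Of 22 listed genes of thymic epithelium, 6 passed the filter, with 4 higher in NIK cells than in β-Gal cells and than in NIK(KA) and 0 lower. Those 4, Cd40, Cd74, Ly75 and Ehf, had under 1 FPKM in both NIK(KA) and β-Gal, so they passed the filter only through NIK. Over all genes past the filter, 5.14% were higher in NIK cells than in β-Gal cells and 5.07% than in NIK(KA). Cd40, a receptor through which T cells act on medullary epithelium, had an estimated 777 reads in NIK but 0 in both NIK(KA) and β-Gal. By the lower end of the interval from that estimate, Cd40 was at least 252-fold higher in NIK cells than in β-Gal cells. Cd74, the invariant chain of MHC class II, had 830 reads in NIK, 3 in NIK(KA) and 3 in β-Gal, a ratio of 332 for NIK against β-Gal (113 to 1613). Ly75, the endocytic receptor DEC-205, had 314 reads in NIK, 70 in NIK(KA) and 47 in β-Gal, and was 8.02-fold higher in NIK cells than in β-Gal cells (5.89 to 11.1). The epithelial ETS gene Ehf had 230 reads in NIK, 14 in NIK(KA) and 19 in β-Gal. Ltbr and Ccl25, the most abundant of the list, were not called. Of the thymus-defining genes, Foxn1 had 8 reads in NIK, 1 in NIK(KA) and 4 in β-Gal, and Psmb11 had 0 in each library. All 10 genes for partners of the AIRE protein passed the filter and 0 were called in any comparison. Their median log2 difference was 0.12 for NIK against β-Gal, beside -0.02 for all genes. Top2a and Chd4 were the most abundant of these partner genes, at 570 and 261 FPKM in NIK, 512 and 266 in NIK(KA), and 608 and 258 in β-Gal.

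Other genes of the ETS family, to which Spib belongs, differed less than Spib. Of 25 listed, 17 passed the filter, and 4 were higher and 0 lower in NIK cells than in β-Gal cells and than in NIK(KA). These were Ehf, Spdef, Elf3 and Elk3, of which Ehf and Spdef passed the filter only through NIK. The share of all genes past the filter that were higher in NIK cells than in β-Gal cells was 5.14%. Spdef, a goblet-cell factor, had an estimated 63 reads in NIK, 7 in NIK(KA) and 0 in β-Gal. By the lower end of the interval from that estimate, Spdef was at least 19.9-fold higher in NIK cells than in β-Gal cells. Elf3, an epithelial factor, was 4.29-fold higher (3.46 to 5.36) and Elk3 likewise 4.29-fold (3.03 to 6.19), both for NIK against β-Gal. The most abundant ETS genes were Etv1, at 198 FPKM in NIK, 301 in NIK(KA) and 378 in β-Gal, and Fev, at 114, 170 and 157 FPKM in that order. Spi1, which encodes PU.1, the closest relative of Spib, had 0 reads in NIK, an estimated 4 in NIK(KA) and 0 in β-Gal. Among 13 paralogs of the 9 genes 5 passed the filter and 3 were higher in NIK cells than in β-Gal cells, with 0 lower. Pglyrp2, unlike Pglyrp1, had 125 reads in NIK, 1 in NIK(KA) and 0 in β-Gal, and passed the filter only through NIK. Sox9 was 2.76-fold higher (2.37 to 3.22) and Marcks 2.17-fold higher (2.07 to 2.27) in NIK cells than in β-Gal cells. Sox10, Ccl6, Umod and Fezf1 had 0 reads in each library.

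**Figure D4:**
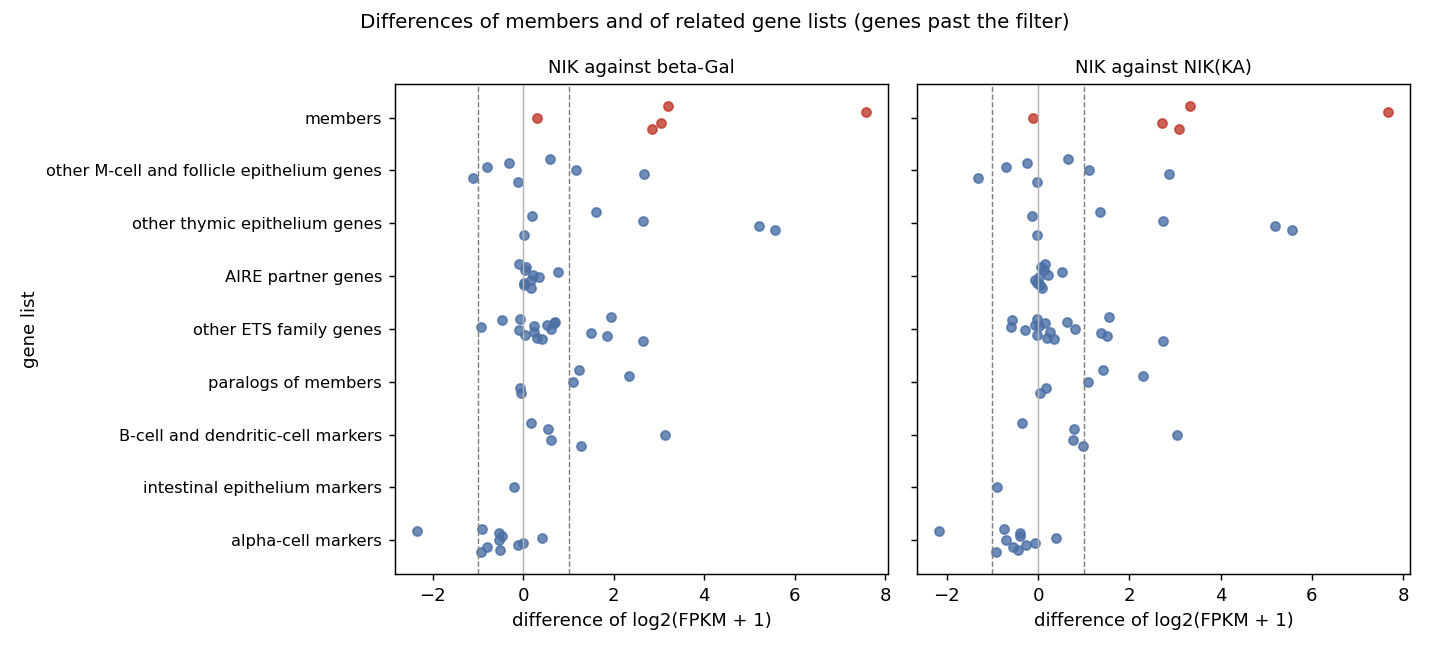
Difference of log2(FPKM + 1) for each gene past the filter, by list, for NIK against β-Gal and NIK against NIK(KA), with the 2-fold rule as dashed lines. Spib has the largest difference of the genes shown, at 7.57 and 7.67, and the AIRE partner genes all lie within 2-fold.

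Since Spib is known best from B cells and dendritic cells, markers of those cells were examined beside it. Of 20 listed, 15 lay under the filter, and the list summed to 33.8 FPKM in NIK, 13.8 in NIK(KA) and 11.3 in β-Gal. In NIK against β-Gal 2 were higher, Fcer2a and Batf3, and 0 were lower, beside 5.14% higher and 1.48% lower over all genes past the filter. Of these 2, Fcer2a passed the filter only through NIK. Fcer2a, the low-affinity IgE receptor CD23, had 166 reads in NIK, 5 in NIK(KA) and 4 in β-Gal, 49.8-fold higher in NIK cells than in β-Gal cells (19.1 to 185). Batf3 was 2.90-fold higher in NIK cells than in β-Gal cells (1.99 to 4.28). It did not pass the rule against NIK(KA), where 1 gene of the list was higher. Ebf1, the other abundant gene of the list, was at 7.05 FPKM in NIK, 3.71 in NIK(KA) and 4.23 in β-Gal. With no filter 4 genes were higher in NIK cells than in β-Gal cells, the others being Blnk, a B-cell adaptor gene, and Irf4, a lymphoid transcription factor gene. Blnk had 101 reads in NIK, 0 in NIK(KA) and 2 in β-Gal, a ratio of 60.6 for NIK against β-Gal (16.3 to 507). Irf4 had 75 reads in NIK, 1 in NIK(KA) and 3 in β-Gal, with an interval of 9.88 to 149 for the ratio of NIK against β-Gal. The part of such cells in the Spib value was not tested. The defining leukocyte gene Ptprc had 0 reads in NIK, 1 in NIK(KA) and 0 in β-Gal, and Pou2af1, Cd22 and Cd3e had 0 reads in each library. Of 10 intestinal epithelium markers only Vil1 passed the filter, and it was not called. It was at 0.626 FPKM in NIK, 2.04 in NIK(KA) and 0.870 in β-Gal. Fabp2 had 3 reads in NIK, 14 in NIK(KA) and 18 in β-Gal. Olfm4, a stem-cell marker of the crypt, went the other way under the filter, with 49 reads in NIK, 0 in NIK(KA) and 1 in β-Gal, a ratio of 58.8 for NIK against β-Gal (10.1 to 2369). Cdx2, the factor that defines the intestine, had 0 reads in each library. Among the α-cell markers 0 were higher and 1, the glutamine transporter Slc38a5, was lower in NIK cells than in β-Gal cells. Its FPKM was 83.5 in NIK, 378 in NIK(KA) and 430 in β-Gal. Scg2, after Gcg the most abundant of the α-cell list, was at 411 FPKM in NIK, 541 in NIK(KA) and 597 in β-Gal.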

How the data were processed

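Total RNA of αTC1-6 cells was sequenced, with 1 library per group. The deposited values are FPKM per gene, made by the authors. TopHat2, HTSeq 0.6.1 and GRCm38 were used per the submitters' processing notes, and their roles, the annotation and the strand setting are not stated in those notes or the labels. All deposited columns were used.

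Gene IDs were matched to GENCODE M21 (GRCm38), 52489 of 52948 with success. FPKM times mean transcript length is a fraction of reads over the library total, whose common denominator gave that total. Whole reads were recovered for 26440 of 26584 detected genes and used for exact intervals only (conditional binomial for ratios, Poisson for single values). For 15082 genes the mean transcript length gave reads within 0.001 of whole numbers. For the other recovered genes, whole reads that fit the ratios between libraries were taken, nearest to an estimate from the length where known. Where such a gene had reads in a single library, as Cd40, Exoc3l4, Dnmt3l and Spi1 did, any count fits. Its count is that estimate, rounded. For Spdef several counts fit the ratio between libraries, and the nearest to the estimate was taken, so its count is an estimate too. Without molecular identifiers reads may be PCR copies, so intervals cover counting error only, and a count of 0 allows up to 3 reads. Against a count of 0 a fold is stated as the lower limit of its interval. The recovery and the 2-fold rule were checked on simulated data. Map3k14 was left out of the counts over all genes.

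The 9 genes and the lists were chosen with earlier results of these data known. From each of 8 lists, with 126 distinct genes, the text names up to 4 past the rule by size of difference in NIK against β-Gal and the 2 most abundant. Other list genes named were chosen after their values were seen. Ccl19 and Ccl21a each match more than 1 gene ID and were left out. Also named are overlapping and flanking genes and, for each of the 9 genes past the filter, the 3 nearest protein-coding genes in log2(FPKM + 1). Promoter sequences are from RefSeq (GRCm38.p6). Alternatives changed the pseudocount, filter and scaling. Python 3.11.15, pandas 2.3.3, NumPy 2.4.6, SciPy 1.17.1 and matplotlib 3.10.9 were used.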

Additional observations from a re-analysis of the deposited data

How the results depend on the processing

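The counts of the 9 genes called were 4 higher and 0 lower for both comparisons of NIK, and 0 for NIK(KA) against β-Gal. Each stayed within 1.5 times the value reported under every alternative run. These were a pseudocount of 0.1 or 5, the filter dropped or raised to a mean FPKM of 5, and TPM, upper-quartile or median-ratio scaling. With the filter at 5 FPKM Aire was no longer called, as its mean of 3.71 FPKM lay below it. Of the counts over the 126 listed genes, 14 higher and 2 lower for NIK against β-Gal, 13 and 2 for NIK against NIK(KA) and 0 and 0 for NIK(KA) against β-Gal, some moved by more. With a pseudocount of 5 the listed genes higher in NIK were 7 against β-Gal and 7 against NIK(KA), and with the filter at 5 FPKM they were 7 and 6, fewer genes being tested. With a pseudocount of 0.1, 4 were lower in NIK than in NIK(KA) and 2 were higher in NIK(KA) cells than in β-Gal cells. With upper-quartile scaling 4 were lower in NIK cells than in β-Gal cells. Of 336 counts of single lists under the alternatives, 30 moved by more than 1.5 times. For NIK against β-Gal the ETS genes higher were 2 with a pseudocount of 5 and 1 with the filter at 5 FPKM, in place of 4. The paralogs higher were 1 under each of these, in place of 3, and the thymic genes 2 with the filter at 5 FPKM, in place of 4. The B-cell and dendritic-cell markers higher were 1 under each of these and 4 with no filter, in place of 2. The cause of these moves with pseudocount and scaling was not tested. None of the called genes among the 9 changed sign with pseudocount or scaling, and the sign of the other listed genes was not followed. No paired analysis was possible because each group holds 1 library, and for the same reason no library could be left out. Depth limits Gp2, Ccl9, Fezf2, Sox8 and Pglyrp1, which had at most 32 reads in any library.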

Other observations

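The protein-coding genes that flank the 9 genes on GRCm38 differed unevenly, and are given here as values. Next to Aire, Icosl, which encodes the ligand of the T-cell costimulator ICOS, lies 25692 bases away and had 1597 reads in NIK, 15 in NIK(KA) and 13 in β-Gal. It was 147-fold higher in NIK cells than in β-Gal cells (86.0 to 277). On the other side of Aire, the glycolytic gene Pfkl had a ratio of 0.945 for NIK against β-Gal (0.904 to 0.988). Next to Tnfaip2, its paralog Exoc3l4 lies 10791 bases away and had an estimated 60 reads in NIK but 0 in both NIK(KA) and β-Gal. By the lower end of the interval from that estimate, Exoc3l4 was at least 18.9-fold higher in NIK cells than in β-Gal cells. Gm266, on the other side of Tnfaip2, had 12 reads in NIK but 0 in both NIK(KA) and β-Gal.

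Mybpc2, a myosin-binding protein gene of fast muscle, lies 1337 bases downstream of Spib on the same strand. It had 141 reads in NIK, 8 in NIK(KA) and 11 in β-Gal, 15.4-fold higher in NIK cells than in β-Gal cells (8.34 to 31.5). Pold1, a DNA polymerase gene on the other side of Spib at 675 bases, had a ratio of 1.20 for NIK against β-Gal (1.15 to 1.24). Hdac1, which lies 119 bases from Marcksl1, had a ratio of 1.25 (1.18 to 1.32) for NIK against β-Gal. Near Ccl9, Ccl5 had 9 reads in NIK but 0 in both NIK(KA) and β-Gal, and Ccl6 had 0 in each library. Both neighbours of Gp2, Gpr139 and Umod, had 0 reads in each library. For NIK against β-Gal, Lmf1 beside Sox8 had a ratio of 1.00 (0.891 to 1.13) and Ccdc61 beside Pglyrp1 0.966 (0.885 to 1.05). Cadps beside Fezf2 had 1.38 (1.23 to 1.56). Fam229a, on the other side of Marcksl1, had 0 reads in NIK, 8 in NIK(KA) and 3 in β-Gal. Sstr5, Mill2 and Gm49355, which flank Sox8, Pglyrp1 and Fezf2, had at most 4 reads in any library.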
